A study of Arabidopsis thaliana with 15 samples.

Results

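The 26S proteasome subunit genes were examined in roots of Arabidopsis thaliana given Rose Bengal (RB), a dye that forms singlet oxygen when lit, or given hydrogen peroxide with an agent labelled MRB. The set was a fixed list of 38 loci of a deposited table that holds 14391 genes, 17 for the 20S core particle (8 alpha, 9 beta) and 21 for the 19S regulatory particle (9 RPT ATPases, 12 RPN non-ATPases). The loci were listed by subunit name, and the list was set with earlier results of these data known. RPN5B was not among the genes of the table, and 37 loci were. Of these, 33 passed the filter on low counts and were tested, and PAB1, PAE1, RPT4A and RPN8A did not pass it.

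All groups were wild-type (WT) Columbia-0 seedlings, 7 days old, with 30 to 50 seedlings pooled per replicate and roots cut from shoots after the treatment. The 5 groups held 3 libraries each: a 1 h water control, RB at 10 µM kept on for 1 h, 2 h or 3 h, and RBH, which is 5 mM H2O2 with 10 µM of an agent the labels write as MRB, for 2 h. The water titles say 0 where the treatment field says 1 h. Water was given at that 1 time, so at 2 h and 3 h the agent and the time in solution changed together. The labels do not state the light conditions, and H2O2 alone was not analysed here.

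The 26S proteasome degrades proteins tagged with ubiquitin. Alpha and beta rings stack into the core particle, whose active sites lie inside on the beta subunits. The regulatory particle caps the core: its RPT ring of ATPases unfolds the substrate, and its RPN subunits bind and trim ubiquitin. In Arabidopsis many subunits are encoded by pairs of near-identical genes, and the transcription factors NAC053 and NAC078 raise subunit genes when the proteasome is blocked.

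The promoters of 4 members are shown because members that were lower after RB and one that was not both occur with the TGGGC sequence, and lower ones also without it. TGGGC is the core of the proteasome-related cis element and also a part of site II elements. Each window is the 250 bases before the annotated start in RefSeq's TAIR10.1, none of them lies in an exon of another gene, and capitals mark TGGGC on either strand. The build behind the counts is not stated, and they were joined to TAIR10.1 by locus alone. RPN1A (chr2:8858712-8858961, plus strand) and PBE1 (chr1:4451940-4452189, plus strand) were the members lower after RB. PAF1 (chr5:17161157-17161406, minus strand) was lower in 7 of 9 RB libraries than in any water library, and PBA1 (chr4:15188494-15188743, plus strand) was not.
RPN1A: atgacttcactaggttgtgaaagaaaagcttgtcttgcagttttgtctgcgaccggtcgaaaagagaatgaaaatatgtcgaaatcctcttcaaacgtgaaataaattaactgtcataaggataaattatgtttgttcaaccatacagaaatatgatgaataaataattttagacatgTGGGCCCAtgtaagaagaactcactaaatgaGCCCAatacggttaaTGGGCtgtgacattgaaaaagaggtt
PBE1: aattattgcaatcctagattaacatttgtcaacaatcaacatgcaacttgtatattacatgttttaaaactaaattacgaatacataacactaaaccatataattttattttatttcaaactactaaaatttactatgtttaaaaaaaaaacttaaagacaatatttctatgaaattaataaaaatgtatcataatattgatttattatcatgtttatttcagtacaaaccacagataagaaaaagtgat
PAF1: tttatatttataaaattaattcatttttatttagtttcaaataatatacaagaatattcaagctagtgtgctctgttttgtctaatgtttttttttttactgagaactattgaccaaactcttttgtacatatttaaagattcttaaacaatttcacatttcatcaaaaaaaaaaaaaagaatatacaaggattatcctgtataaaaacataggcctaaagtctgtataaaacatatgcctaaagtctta
PBA1: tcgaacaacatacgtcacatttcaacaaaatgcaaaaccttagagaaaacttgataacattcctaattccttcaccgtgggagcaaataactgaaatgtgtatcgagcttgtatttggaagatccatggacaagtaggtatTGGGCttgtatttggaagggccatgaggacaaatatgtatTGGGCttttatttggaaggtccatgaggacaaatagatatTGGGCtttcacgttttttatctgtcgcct

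RPN1A held 4 matches of TGGGC or GCCCA, its reverse complement, from 72 to 26 bases before the start, and the first pair overlaps. PBA1 held 3, at 109, 69 and 29 bases. PBE1 and PAF1 held 0 in these windows, and neither did the window of AT5G23540, the member higher in RBH, so of the 3 called members RPN1A held the motif in its window. Over all members, 17 of 38 windows (44.7%) held TGGGC, beside 22.7% of the windows of 27443 protein-coding genes. Those 27443 include genes without a row in the counts, and a share over genes expressed in these roots was not computed. The share was 52.9% of the core loci (9 of 17) and 38.1% of the regulatory loci (8 of 21). GAANNTTC, the core of the heat shock element, was in 10.5% of member windows and 9.55% of all. CACGTG, the G-box, was in 2.63% and 6.49%. In 17 of the 38 windows some bases lie in exons of other genes, and a match is a description of the letters.

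Library totals ranged from 897728 to 6230975 counts. MARS-seq reads transcripts near the 3′ end, and values are given below as CPM, counts of the gene scaled to the library total after trimmed-mean (TMM) normalization, in the order of replicates a, b and c. All 4 root markers were present in every group, at 0.0214% to 0.0605% of counts summed. The 9 shoot markers summed to 0.0129% to 0.0609%, highest in RBH c. Their range was 0.0176% to 0.0609% in RBH and 0.0183% to 0.0293% in water. RBCS1A, a shoot marker, had 39.9, 78.1 and 227 CPM in RBH a, b and c. Summed root marker levels were lower after 2 h and 3 h of RB (0.0214% to 0.0293%) than in water (0.0493% to 0.0540%). At 2 h 2 of 4 were called lower, beside 24.8% of all genes called, and at 3 h 3 of 4, beside 32.7%. In RBH the root markers summed to 0.0346% to 0.0525%, with 2 of 4 called lower than water, beside 27.0%. CASP1 made up most of the sum: mean CPM in water was 461 for CASP1, 43.2 for PYK10, 45.6 for EXPA7 and 7.94 for SHV2. In RBH these means were 397, 59.9, 2.47 and 1.19. The part of tissue makeup in the results below was not tested. Libraries RB 1 h b and RB 2 h a lay apart from the rest on the third principal component, at -30.23 and -46.83 against -12.09 to 18.97. That component held 7.4% of the variance. Both libraries had the fewest counts of their groups, 1061356 and 1032423, and results are given with and without both. Among the 19 members in the table with a mean under 50 counts per library, many did not follow the library totals in the pair of libraries compared.

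RBH c had 4.15 times the counts of RBH a, yet 10 of the 19 thinly counted members (52.6%) had fewer counts in the deeper library, against 10.3% of 7950 genes of the same range of means. The other 9 did not, but the median ratio of RBH c to RBH a over the 19 was 0.923, against 3.82 for the 7950 genes. AT5G45620 had 4, 5 and 17 counts in RBH a, b and c, in the order of the totals. Others of the 9 rose less, such as PAA2 with 10 in RBH a and 16 in RBH c, and RPN12a had 17 in both. PBC1, a beta subunit, had 16 counts in RBH a and 2 in RBH c. PBB1, the trypsin-like beta subunit, had 25 and 7, and the alpha subunit PAA1 had 35 and 10. None of the 18 members with a mean of at least 50 did so, and their median ratio was 4.43. The cause was not tested. The cut at 50 was set after seeing the data, and the 18 well-counted members carry the account below.

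**Figure D1:**
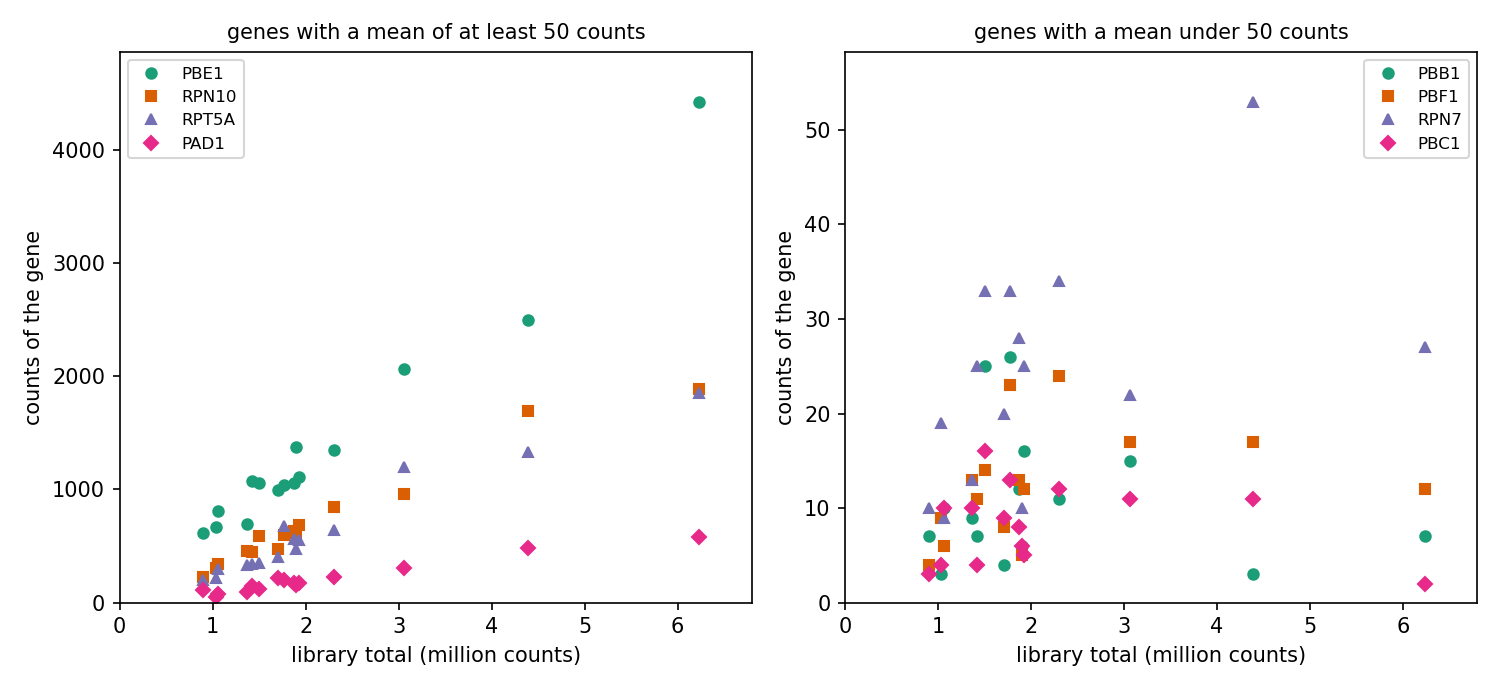
Counts of a gene (y axis) against the library total (x axis) in 15 libraries, for 4 well-counted members (left) and 4 members with a mean under 50 counts (right), picked after their values were seen. Counts on the left rise with the total, and PBC1 on the right reaches 16 in RBH a and 2 in the deepest library.

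Few of the 33 tested members passed the test in any comparison with water. Subunit paralogs outside the list are given apart, further below. In whole roots, fewer cells of a type and less RNA per cell cannot be told apart. After 1 h of RB, 0 of 33 tested members were called by the edgeR quasi-likelihood test at a Benjamini-Hochberg adjusted p under 0.05, with 3 at an unadjusted p under 0.05 and 0 called by DESeq2. Of all 9891 genes, 5.39% were called. After 2 h, 1 member (RPN1A, lower) was called beside 24.8% of all genes. After 3 h, 2 members (RPN1A and PBE1, both lower) were called beside 32.7% of all genes. In RBH against water 1 member (AT5G23540, higher) was called beside 27.0% of all genes. Chosen after seeing their values, these 3 genes are the only members called in those comparisons with all 15 libraries in the fit.

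The well-counted members also kept within a narrow range. The 95% interval of the fold change lay inside 2-fold in both directions for 16 of 18 at 1 h of RB (73.8% of all genes of that depth), for 14 of 18 at 2 h (56.6%), for 14 of 18 at 3 h (50.5%) and for 16 of 18 in RBH (56.2%). The median log2 fold change of the 18 was -0.20, -0.10, -0.05 and 0.08 in the same order, against -0.07, -0.03, -0.08 and 0.06 over all 4716 genes of that depth. No well-counted member changed 2-fold or more in any of the 4 comparisons with water.

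**Figure D2:**
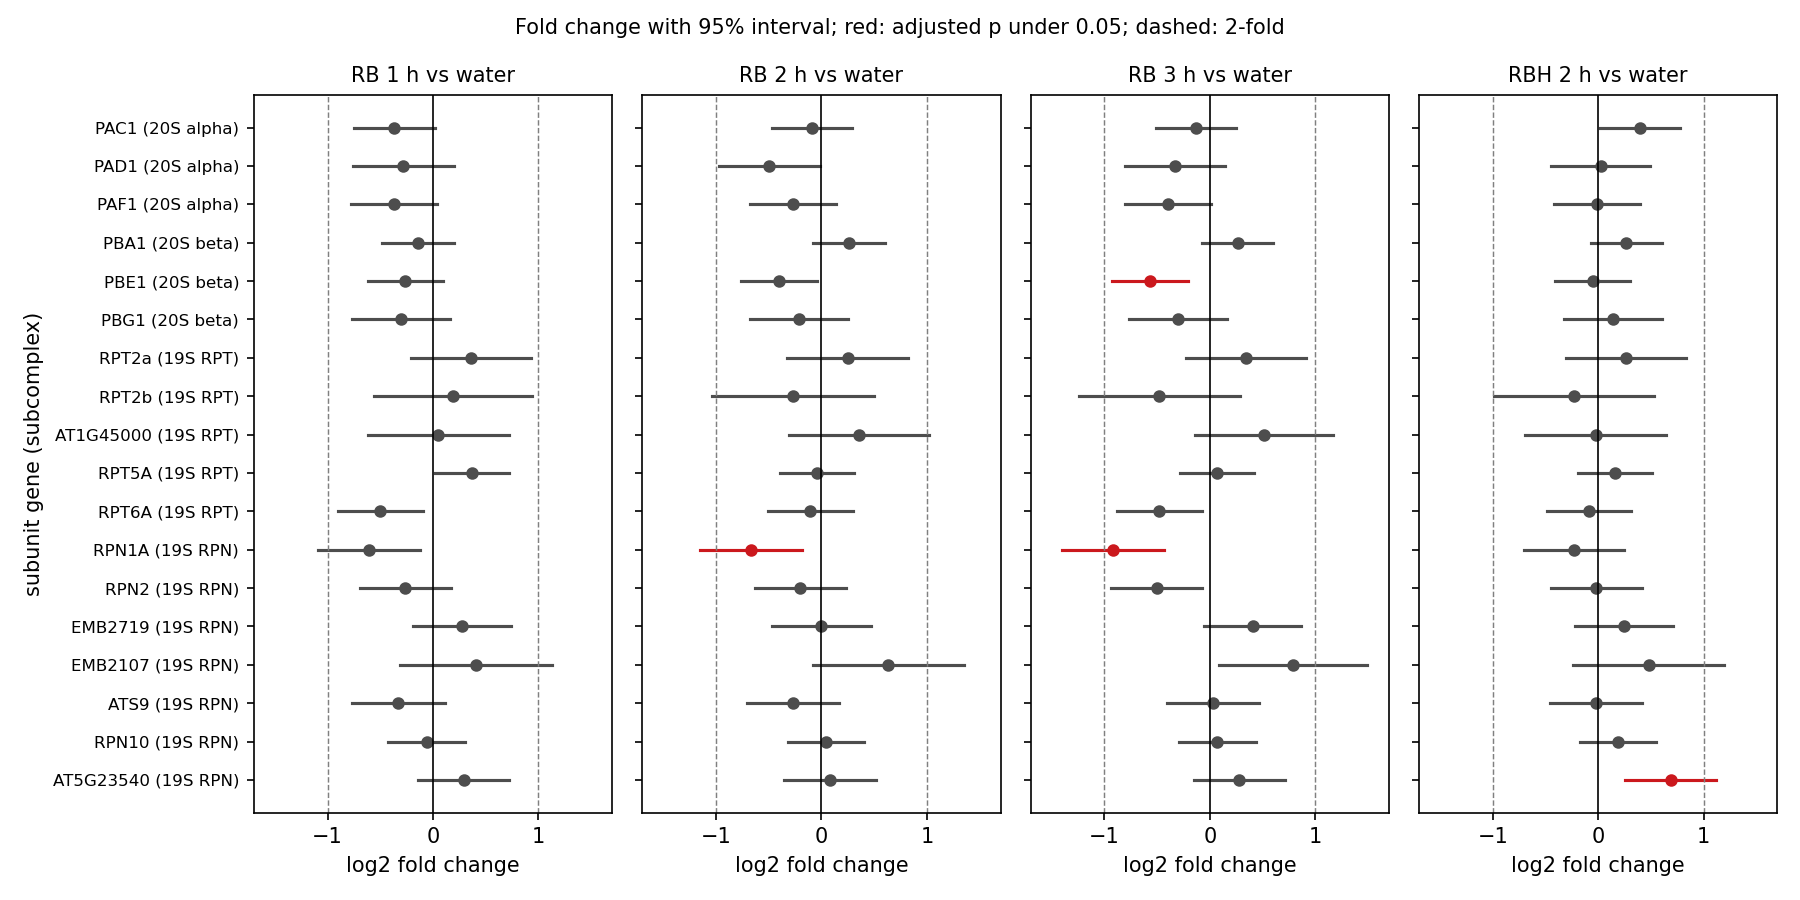
Log2 fold change against water (x axis, point, with its 95% interval as a line) of the 18 well-counted members (y axis) after RB for 1 h, 2 h and 3 h and after RBH. Red marks an adjusted p under 0.05: RPN1A at 2 h and 3 h, PBE1 at 3 h and AT5G23540 in RBH; dashed lines mark 2-fold.

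In the alpha ring, the gated entry of the core, 3 of 8 members were well counted. PAF1 (AT5G42790) stood at 929, 828 and 849 CPM in water, 623, 869 and 532 after 1 h of RB, 972, 609 and 586 after 2 h, 609, 687 and 679.8 after 3 h and 914, 829 and 847 in RBH. It was thus at 532 to 687 CPM in 7 RB libraries and at the water level in RB 1 h b and RB 2 h a, the libraries that lie apart. With all libraries its log2 fold change was -0.37 ± 0.20 (SE) at 1 h (adjusted p = 0.308), -0.27 ± 0.20 at 2 h (adjusted p = 0.352) and -0.40 ± 0.20 at 3 h (adjusted p = 0.126). Without both libraries it was -0.59 (adjusted p = 0.0164), -0.54 (adjusted p = 0.0108) and -0.40 (adjusted p = 0.0233).

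PAD1 (AT3G51260), another alpha subunit, had 136, 108 and 89.5 CPM in water, 92.8, 75.8 and 101 after 1 h of RB, 52.4, 85.2 and 93.0 after 2 h, 103, 88.2 and 68.8 after 3 h and 92.8, 141 and 103 in RBH. Groups overlapped throughout, and its log2 fold change at 2 h was -0.49 ± 0.23 (adjusted p = 0.13). PAC1 (AT3G22110) ranged from 170.4 to 226 CPM in water, from 136 to 162 at 1 h of RB and from 218 to 281 in RBH, with a log2 fold change of 0.40 ± 0.18 in RBH against water (adjusted p = 0.114). The other 5 alpha genes were thinly counted. PAG1 had 15.5, 10.5 and 12.5 CPM in water, 21.0, 14.8 and 19.5 after 1 h of RB, 12.1, 12.2 and 20.2 after 2 h, 10.4, 20.2 and 16.5 after 3 h and 27.6, 25.2 and 10.9 in RBH. PAA1 had 9.55, 5.98 and 5.7 CPM in water, 3.89, 6.89 and 9.48 after 1 h of RB, 11.1, 6.33 and 6.07 after 2 h, 0.852, 5.54 and 5.01 after 3 h and 26.8, 6.46 and 1.76 in RBH. The spread of PAA1 within RBH alone was wider than between any of its group means. PAA2 had 7.16, 2.99 and 6.84 CPM in water, 4.19, 8.86 and 6.48 after 1 h of RB, 11.1, 1.95 and 4.04 after 2 h, 6.82, 5.04 and 7.16 after 3 h and 7.67, 5.81 and 2.82 in RBH. PAA1 and PAA2 encode near-identical proteins, and whether the counting split or dropped reads of such pairs was not tested. PAB1 and PAE1, below the filter, had 0 to 3.49 CPM and 1.29 to 9.20 CPM.

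In the beta ring, which carries the active sites, 3 of 9 members were well counted. PBE1 (AT1G13060), the chymotrypsin-like subunit, stood at 734, 799 and 781 CPM in water, 619, 797 and 518 after 1 h of RB, 670.0, 539 and 544 after 2 h, 532, 532 and 496 after 3 h and 807, 645 and 779.8 in RBH. All RB libraries at 2 h and 3 h lay below all water libraries, while the 1 h group and RBH overlapped water. At 3 h PBE1 was at 67.4% of water (95% interval 52.6% to 86.4%), a log2 fold change of -0.57 ± 0.17 with an adjusted p of 0.0137. At 2 h it was -0.40 ± 0.17 (adjusted p = 0.0946), and without RB 1 h b and RB 2 h a -0.51 (adjusted p = 0.0184). Leaving out RB 3 h c gave -0.54 at 3 h with an adjusted p of 0.0514.

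PBA1 (AT4G31300), the caspase-like subunit, went the other way in sign. It had 302, 378 and 342 CPM in water, 314, 341 and 274 after 1 h of RB, 458, 394 and 376 after 2 h, 436, 421 and 371 after 3 h and 422, 395 and 415 in RBH. RBH libraries lay above all water libraries and the 2 h and 3 h groups nearly so, but the log2 fold changes of 0.26 ± 0.16 at 2 h (adjusted p = 0.263) and 0.27 ± 0.16 in RBH (adjusted p = 0.246) did not pass the test. From 1 h to 3 h of RB it was 0.41 ± 0.16 (adjusted p = 0.0918), and DESeq2 called it (log2 fold change 0.42, adjusted p = 0.0254).

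PBG1 (AT1G56450), a beta subunit with no active site, had 228, 276 and 270.1 CPM in water and 332, 157 and 186 after 2 h of RB, so that the library that lies apart was the highest and the other 2 h libraries were below water. Its log2 fold change at 2 h was -0.21 ± 0.23 (adjusted p = 0.536) with that library and -0.59 (adjusted p = 0.0196) without both. The other 6 beta genes were thinly counted. PBB1 had 8.35, 5.23 and 3.42 CPM in water, 4.49, 9.85 and 13.0 after 1 h of RB, 3.02, 7.79 and 4.45 after 2 h, 0.639, 6.05 and 6.45 after 3 h and 19.2, 2.58 and 1.23 in RBH. PBB2 had 5.97, 5.23 and 2.85 CPM in water, 2.1, 3.94 and 4.99 after 1 h of RB, 5.04, 5.84 and 5.66 after 2 h, 4.47, 7.05 and 2.87 after 3 h and 9.97, 3.88 and 2.11 in RBH. Both encode the trypsin-like subunit, and within RBH PBB1 spread more widely than its groups differed. PBD1 had 15.5, 10.5 and 7.98 CPM in water, 5.39, 7.88 and 5.99 after 1 h of RB, 13.1, 7.79 and 16.2 after 2 h, 10.4, 12.1 and 11.5 after 3 h and 16.1, 6.46 and 6.16 in RBH. PBD2 had 11.9, 5.98 and 7.98 CPM in water, 8.69, 10.8 and 16.0 after 1 h of RB, 14.1, 8.28 and 12.9 after 2 h, 5.54, 8.57 and 6.45 after 3 h and 16.9, 5.17 and 3.52 in RBH. These encode another pair of near-identical subunits, and their treated groups overlapped water except PBD1 at 1 h of RB. PBF1 had 4.77, 8.22 and 2.85 CPM in water, 5.09, 5.91 and 11.5 after 1 h of RB, 9.07, 5.84 and 9.71 after 2 h, 3.62, 6.55 and 9.31 after 3 h and 10.7, 5.17 and 2.11 in RBH. PBC1 ranged from 0.352 to 12.3 CPM over all libraries. None of these 6 was called with all libraries in the fit, and their standard errors at 2 h were 0.40 to 0.94 on the log2 scale.

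In the RPT ring, the ATPases that unfold substrates, 5 of 9 members were well counted, and the 8 tested all missed the threshold in the 4 comparisons with water. RPT2a had 85.9, 79.9 and 90.0 CPM in water, 93.7, 68.9 and 163 after 1 h of RB, 57.4, 127 and 114 after 2 h, 133, 94.7 and 93.8 after 3 h and 93.5, 109.8 and 104 in RBH. RPT2b had 26.3, 31.4 and 22.2 CPM in water, 32.0, 16.7 and 38.9 after 1 h of RB, 6.05, 28.2 and 27.1 after 2 h, 23.2, 20.2 and 11.5 after 3 h and 20.7, 23.2 and 23.4 in RBH. Both were lowest in their 1 h and 2 h groups in RB 1 h b and RB 2 h a. At 2 h RPT2a was 0.25 ± 0.28 and RPT2b -0.27 ± 0.37 on the log2 scale against water (adjusted p = 0.56 and 0.649).

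AT1G45000, annotated as an AAA-type ATPase and listed with the RPT ring, had 54.9, 50.0 and 42.7 CPM in water, 48.2, 29.5 and 70.3 after 1 h of RB, 32.2, 75.5 and 74.4 after 2 h, 87.8, 56.9 and 61.6 after 3 h and 29.9, 56.8 and 54.8 in RBH. The 3 h libraries all lay above water, 0.51 ± 0.31 higher on the log2 scale (adjusted p = 0.224). RPT4A had 5.97, 0.747 and 1.14 CPM in water, 2.1, 0.985 and 7.48 after 1 h of RB, 2.02, 1.46 and 2.83 after 2 h, 0.852, 2.52 and 3.58 after 3 h and 6.9, 2.58 and 0.528 in RBH. It is the partner of AT1G45000 and was not tested. 

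RPT5A had 239.9, 257 and 271 CPM in water, 359, 293 and 339.7 after 1 h of RB, 216, 268 and 260.4 after 2 h, 284, 285 and 236 after 3 h and 269, 260.3 and 326 in RBH. The 1 h libraries lay above all water libraries and the 2 h ones overlapped them, with a log2 fold change of 0.37 ± 0.17 at 1 h (adjusted p = 0.223). RPT5B had 10.7, 14.9 and 9.69 CPM in water, 13.8, 8.86 and 17.0 after 1 h of RB, 11.1, 26.8 and 14.6 after 2 h, 20.7, 17.6 and 12.9 after 3 h and 19.2, 11.0 and 11.4 in RBH. RPT1A had 25.1, 5.98 and 9.12 CPM in water, 8.69, 19.7 and 19.5 after 1 h of RB, 15.1, 10.2 and 14.2 after 2 h, 11.3, 14.1 and 14.3 after 3 h and 22.2, 13.6 and 7.57 in RBH. RPT5B and RPT1A are thinly counted, as is RPT3, which ranged from 4.93 to 31.7 CPM, and their groups overlapped.

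RPT6A (AT5G19990) lay below all water libraries at 1 h and 3 h of RB and overlapped them at 2 h. It had 363, 344 and 321 CPM in water, 233, 288 and 207 after 1 h of RB, 393, 245 and 319.5 after 2 h, 198, 241 and 300.2 after 3 h and 310.5, 334 and 324 in RBH. Its log2 fold changes of -0.50 ± 0.19 at 1 h (adjusted p = 0.146) and -0.48 ± 0.19 at 3 h (adjusted p = 0.0613) missed the threshold. Without RB 1 h b and RB 2 h a they were -0.64 (adjusted p = 0.0326) and -0.48 (adjusted p = 0.0269).

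Among the RPN subunits, 7 of 12 were well counted, and at 3 h of RB these held both the lowest and the highest log2 fold change of the 18. RPN1A (AT2G20580), a scaffold of the base that docks ubiquitin shuttle factors, stood at 230.3, 222 and 239 CPM in water, 131, 218 and 112 after 1 h of RB, 211, 122 and 109 after 2 h, 120.0, 119 and 128 after 3 h and 224, 183 and 185 in RBH. Every RB library lay below every water library, 7 of 9 of them at 109 to 131 CPM, and RB 1 h b and RB 2 h a at 218 and 211. RBH overlapped water.

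RPN1A was at 62.9% of water at 2 h of RB (95% interval 44.9% to 88.1%) and at 53.0% at 3 h (37.9% to 74.2%). The log2 fold changes were -0.60 ± 0.23 at 1 h (adjusted p = 0.145), -0.67 ± 0.23 at 2 h (adjusted p = 0.04) and -0.92 ± 0.23 at 3 h (adjusted p = 0.00404). The call at 3 h held when each of the 6 libraries of water and RB 3 h was left out in turn, with adjusted p from 0.0104 to 0.0202. The call at 2 h was lost without any 1 water library or without RB 2 h b or RB 2 h c, with adjusted p up to 0.205 over these fits. Without RB 1 h b and RB 2 h a, RPN1A was called at 1 h too, at -0.92 (adjusted p = 0.00126).

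RPN2 (AT2G32730), the other large scaffold of the base, had 475, 351 and 437 CPM in water, 473, 381 and 248 after 2 h of RB and 268, 318 and 304 after 3 h, where all libraries lay below water. Its log2 fold change at 3 h was -0.50 ± 0.21 (adjusted p = 0.0665), and without RB 1 h b and RB 2 h a the adjusted p was 0.0356. EMB2107 (AT5G09900), which is RPN5A, an isoform of a lid subunit, had 29.8, 27.6 and 29.1 CPM in water, 39.2, 21.7 and 50.4 after 1 h of RB, 26.2, 48.2 and 55.8 after 2 h, 76.7, 37.8 and 29.4 after 3 h and 33.7, 41.3 and 43.9 in RBH. It was the member with the largest positive log2 fold change at 3 h, 0.79 ± 0.34 (adjusted p = 0.0782). Without both libraries it was 0.85 at 2 h (adjusted p = 0.0497) and 0.80 at 3 h (adjusted p = 0.0368).

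ATS9 had 264, 241 and 234 CPM in water, 167, 176 and 244 after 1 h of RB, 144, 247 and 216 after 2 h, 317, 211 and 222 after 3 h and 251, 264 and 212 in RBH. It is RPN6, a lid subunit, and its groups overlapped at 2 h of RB. EMB2719 had 69.2, 96.4 and 88.9 CPM in water, 117, 68.0 and 121 after 1 h of RB, 62.5, 82.8 and 107 after 2 h, 125, 103 and 111 after 3 h and 88.2, 104 and 110.3 in RBH. The gene, a non-ATPase regulatory subunit, was above all water libraries at 3 h (log2 fold change 0.41 ± 0.22, adjusted p = 0.166). At 2 h it was level with water, at -0.00 ± 0.23. RPN10 (AT4G38630), a ubiquitin receptor, ranged from 267 to 349.9 CPM in water and from 286 to 360.3 over the 9 RB libraries, and its 95% interval at 2 h, -0.32 to 0.41, lay inside 2-fold. The other RPN genes in the table were thinly counted: RPN7 ranged from 4.76 to 25.3 CPM, RPN8A from 0.985 to 7.67, RPN12a reached 13.0 and AT5G45620, a PCI domain gene, ranged from 2.92 to 10.7. AT5G45620 had the lowest log2 fold change of the tested members in RBH, -1.14 ± 0.50 (adjusted p = 0.0982).

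**Figure D3:**
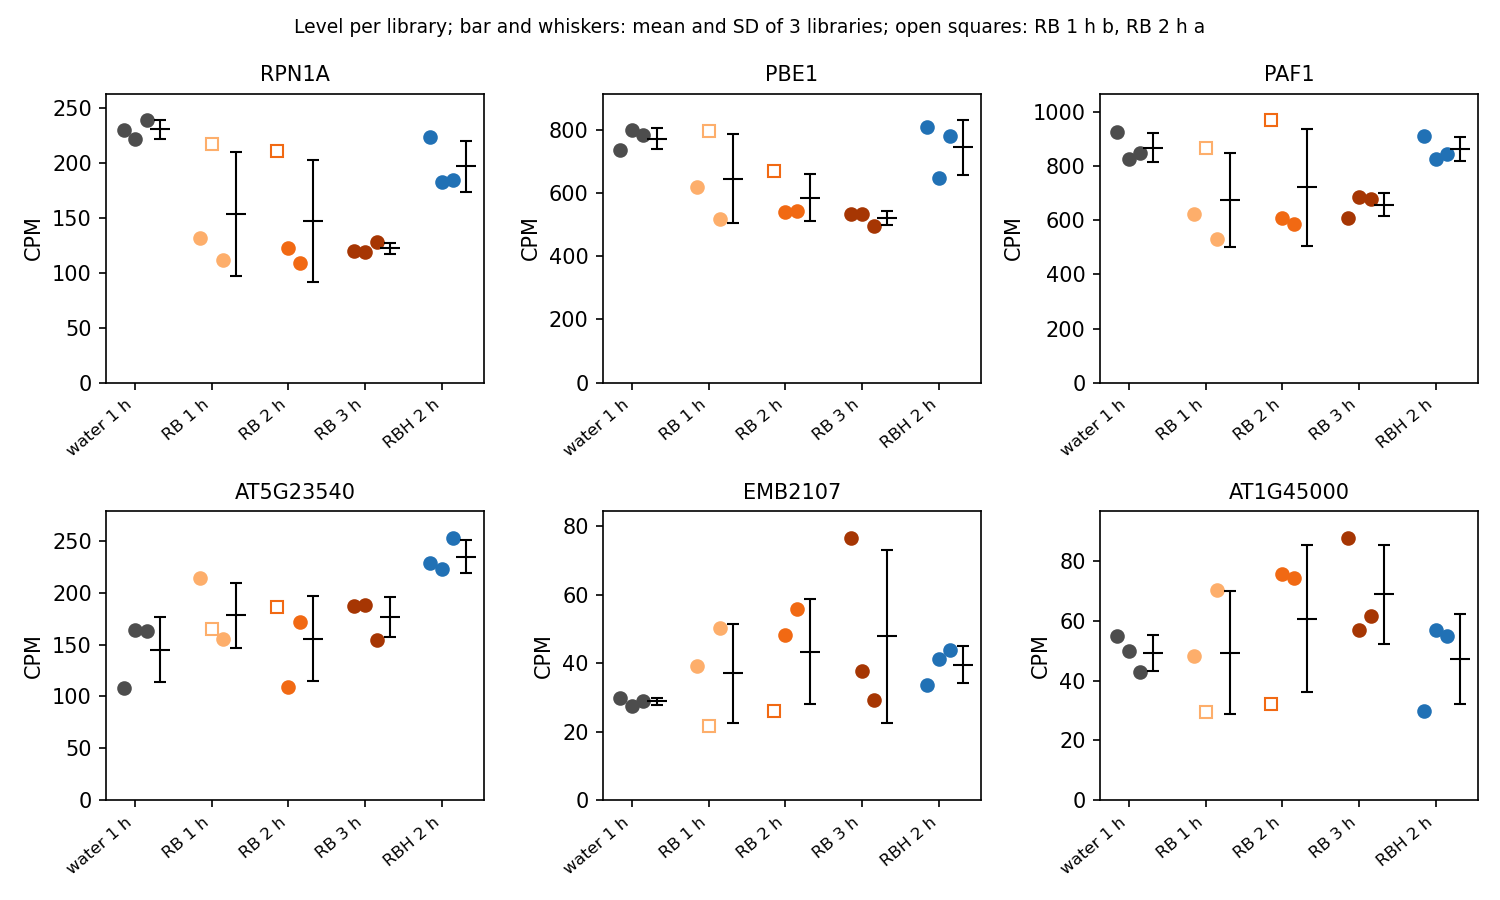
CPM per library (y axis, points) by group (x axis) for RPN1A, PBE1, PAF1, AT5G23540, EMB2107 and AT1G45000, with the mean and SD of 3 libraries beside them. Open squares are RB 1 h b and RB 2 h a, which sit at 218 and 211 CPM for RPN1A, near water, while the other RB libraries sit at 109 to 131.

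AT5G23540 was the member that rose in RBH. It is annotated in the Mov34/MPN/PAD-1 family, to which the deubiquitinating lid subunit of yeast, Rpn11, also belongs. It had 109, 164 and 163 CPM in water, 214, 165 and 155 after 1 h of RB, 186, 109 and 171 after 2 h, 187, 188 and 155 after 3 h and 228, 223 and 253 in RBH. The RBH libraries were above all 12 others. RBH was at 160.9% of water (95% interval 119.3% to 216.9%), or 0.69 ± 0.21 on the log2 scale (adjusted p = 0.0158). Without water a it was 0.53 (adjusted p = 0.102) and without RBH c 0.61 (adjusted p = 0.0605).

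RBH was set against RB at the same time, 2 h. Whether MRB is the same dye as RB is not stated, so the groups may differ in more than the peroxide. AT5G23540 was the 1 of 33 members called, beside 16.8% of all genes, with 0.60 ± 0.21 on the log2 scale (adjusted p = 0.0471). That call was lost when any library of these groups other than RB 2 h a was left out, when only these groups were fitted (adjusted p = 0.0958) and with no filter (adjusted p = 0.0577). The 6 well-counted core members all had a positive sign, from 0.01 to 0.52 with a median of 0.35, and the 12 regulatory ones a median of 0.16 with 10 positive. Over all genes of that depth the median was 0.09. The 95% interval lay inside 2-fold for 16 of 18 members and for 65.8% of all genes of that depth. Without RB 2 h a and RB 1 h b, 5 members were called and all were higher in RBH, beside 22.5% of all genes. These were RPN1A (0.77, adjusted p = 0.00229), PBG1 (0.73, adjusted p = 0.00686), PBE1 (0.46, adjusted p = 0.0394), PAF1 (0.53, adjusted p = 0.0154) and AT5G23540.

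The core and regulatory particles were compared by their summed CPM, as a description with no test. The core sum was 2616 ± 61.0 CPM (SD, n = 3) in water, 2163 ± 380 after 1 h of RB, 2285 ± 416 after 2 h, 2133 ± 88.0 after 3 h and 2761 ± 196 in RBH. It was below the lowest water library in 7 of 9 RB libraries and in 0 of 3 RBH libraries. The exceptions were RB 1 h b and RB 2 h a, at 2575 and 2765 CPM. PAF1 and PBE1 made up 59.0% of the core sum, so it mostly repeats those genes. The regulatory sum was 2304 ± 35.9 CPM in water, 2157 ± 26.1 after 1 h of RB, 2157 ± 36.3 after 2 h, 2127 ± 103 after 3 h and 2451 ± 140 in RBH. It was below the lowest water library in 9 of 9 RB libraries. Taken apart, the RPN sum was below in 8 of 9, and the RPT sum in 5 of 9 with 2 above the highest water library. RPN2, RPN10, RPT6A, RPT5A and ATS9 made up 67.0% of the regulatory sum. Core over regulatory was 1.09 to 1.18 in water, 1.11 to 1.14 in RBH, 0.836 to 1.07 in 7 RB libraries, and 1.26 in RB 2 h a, with RB 1 h b also above all water libraries.

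**Figure D4:**
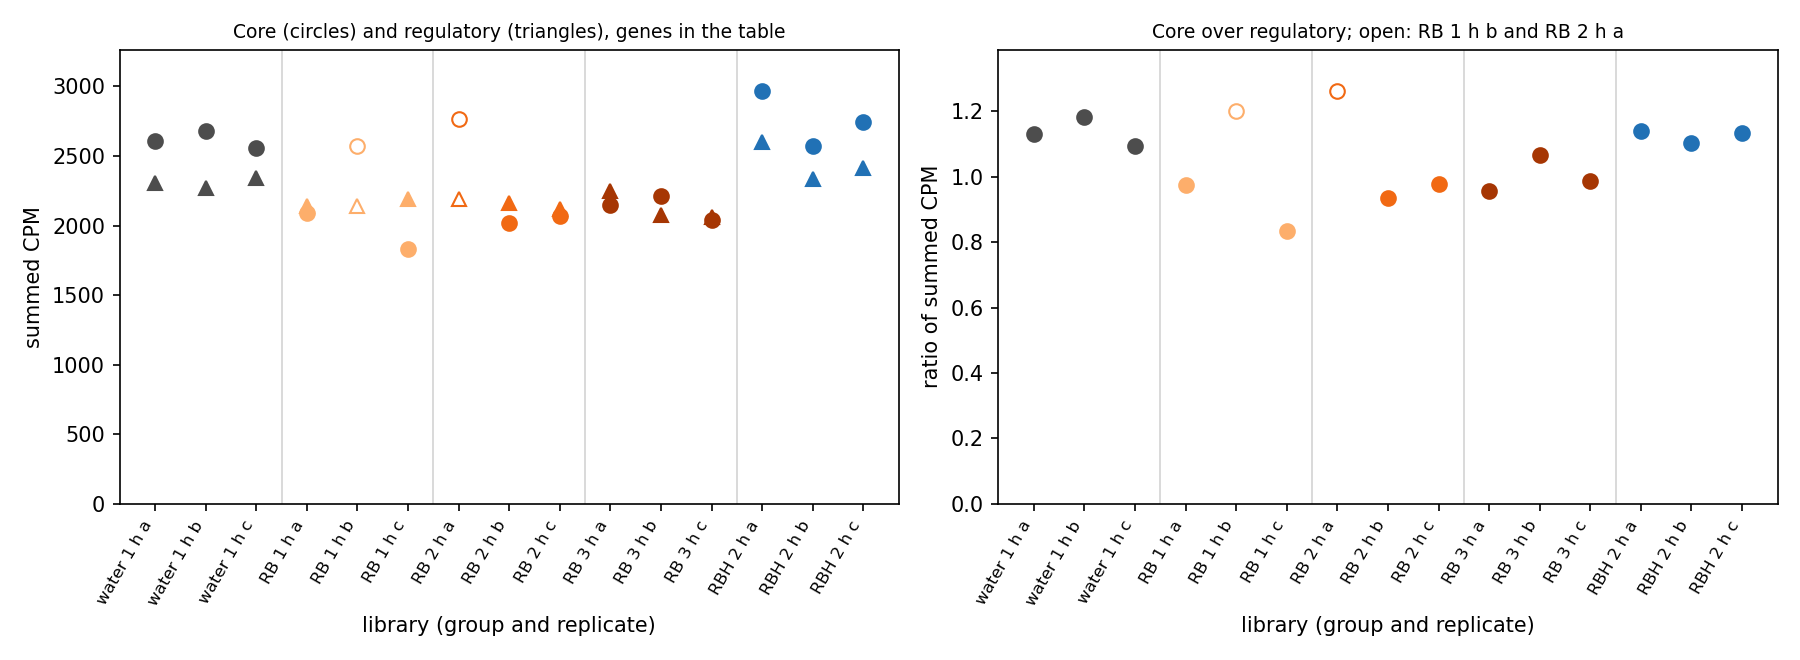
Summed CPM of the core (circles) and regulatory (triangles) members in each library (left) and the ratio of the sums (right), by library on the x axis and coloured by group; sums are dominated by the well-counted genes. Core sums are 2559 to 2680 CPM in water and 1828 to 2210 in 7 RB libraries, and open symbols (RB 1 h b, RB 2 h a) are at 2575 and 2765.

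By log2 fold change, the 6 well-counted core members had medians of -0.29, -0.24 and -0.32 at 1 h, 2 h and 3 h of RB, with 6, 5 and 5 of 6 negative. The exception at 2 h and 3 h was PBA1. The 12 regulatory members had medians of 0.12, -0.02 and 0.07, with 5, 7 and 4 of 12 negative. Over all tested members, thinly counted ones included, the core medians were -0.14, 0.12 and -0.13 and the regulatory medians 0.12, 0.02 and 0.07, so the order of the particles at 2 h depended on the limit of 50 counts. Over all tested members the core median minus the regulatory median at 1 h was -0.26, and it was -0.10 without RB 1 h replicate a and -0.04 without RB 1 h replicate c. These comparisons share the water libraries. Well-counted core members ranged from -0.57 to 0.26 at 3 h and regulatory members from -0.92 (RPN1A) to 0.79 (EMB2107).

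**Figure D5:**
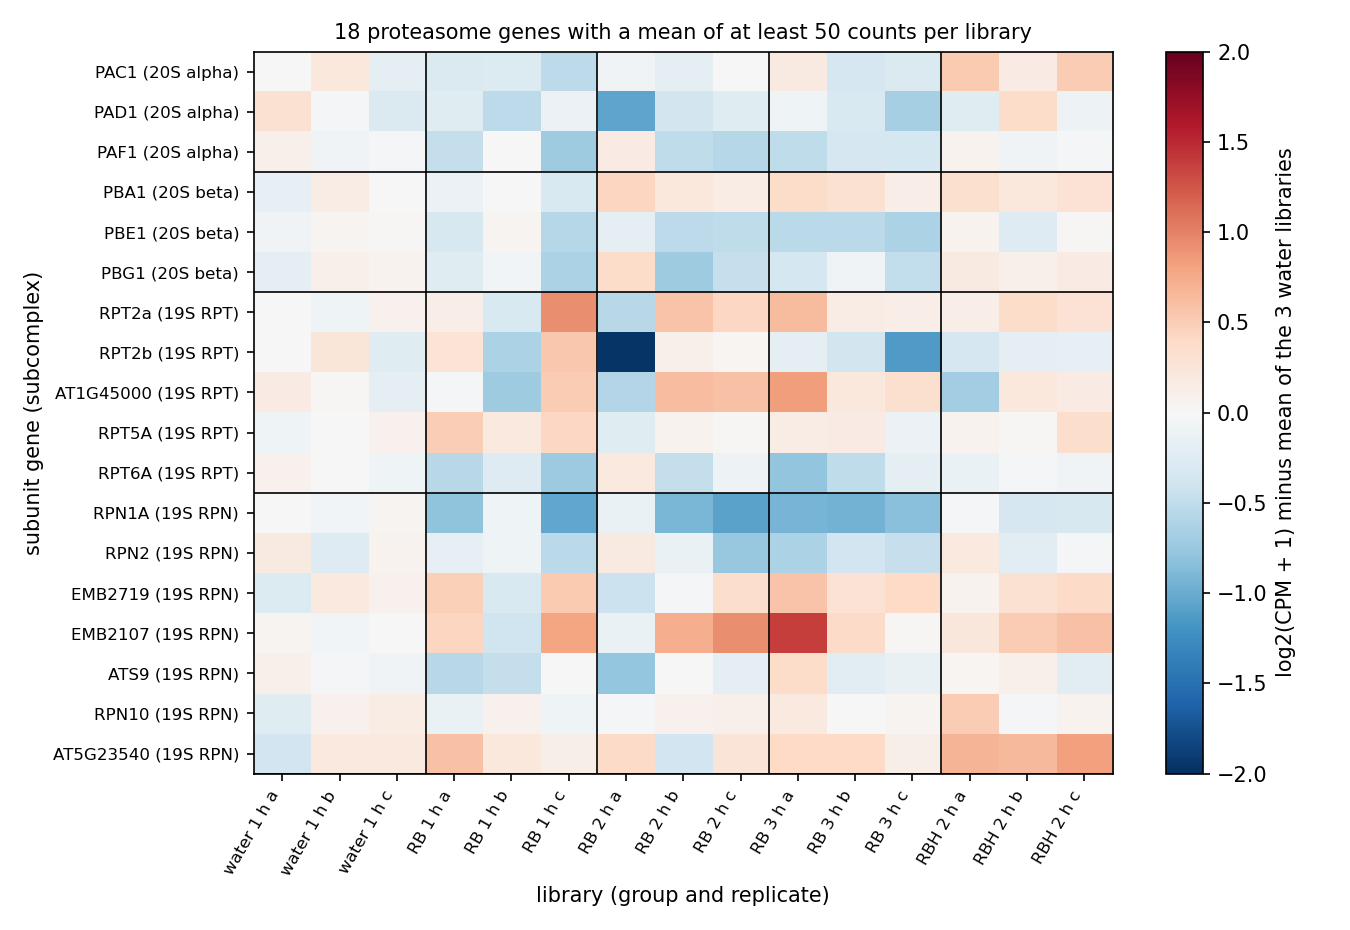
Log2(CPM + 1) minus the mean of the 3 water libraries (colour, red higher, blue lower) for the 18 well-counted members (rows, by subcomplex) in 15 libraries (columns, by group). RPN1A, PBE1 and PAF1 are blue in most RB libraries and near white in RB 1 h b and in RBH, while EMB2107 is red in most RB libraries and in RBH.

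The time of change was read from the steps between RB times. From 1 h to 2 h, 0 of 33 members were called by edgeR and 0 by DESeq2, beside 9.79% of all genes, with 3 at an unadjusted p under 0.05 (PBA1, PBD1 and RPT5A). From 1 h to 3 h, 0 were called by edgeR and 1 (PBA1) by DESeq2, beside 17.7% of all genes by edgeR, with 2 at an unadjusted p under 0.05 (PBA1 and PBD1). From 2 h to 3 h, 0 were called by either tool, beside 0.222% of all genes, and 0 had an unadjusted p under 0.05. Without RB 1 h b and RB 2 h a, 0 of 33 were called from 1 h to 2 h, beside 8.10% of all genes. From 1 h to 3 h 2 were called, RPT2b lower (-0.88, adjusted p = 0.0192) and PBA1 higher (0.48, adjusted p = 0.043), beside 17.1%. From 2 h to 3 h 0 were called, beside 0.121%. RPN1A had 131, 218 and 112 CPM at 1 h and 119 to 128 at 3 h, and it was not called at 1 h with all libraries (adjusted p = 0.145).

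Leaving out RB 1 h b and RB 2 h a raised the number of members called. At 1 h 3 were called, all lower (RPN1A, RPT6A and PAF1), beside 11.4% of all genes. At 2 h 5 were called, 4 lower (RPN1A, PBE1, PBG1 and PAF1) and 1 higher (EMB2107), beside 28.9%. At 3 h 6 were called, 5 lower (RPN1A, PBE1, RPN2, RPT6A and PAF1) and 1 higher (EMB2107), beside 36.9%. In RBH against water it remained 1, beside 30.5%. These libraries were picked knowing that they lie apart, and several of these members are near water in them, so the counts without them are not independent support.

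The authors' deposited table, which gives the first-named group over the second, has RPN1A at an adjusted p of 0.0419 for water over RB 2 h and 0.00238 for water over RB 3 h. In the authors' deposited table PBE1 passes in water over RB 3 h (adjusted p = 0.00926), AT5G23540 in water over RBH (adjusted p = 0.015) and PBA1 in RB 1 h over RB 3 h (adjusted p = 0.0427). For RB 2 h over RBH, the authors' deposited table has AT5G23540 at an adjusted p of 0.0501 and 0 members under 0.05, where edgeR called 1. None of the members that pass in the authors' deposited table changed 2-fold there.

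Paralogs of the subunits that are not members were read as a list of 18 loci, 13 of them tested. At 2 h of RB 1 rose and 2 fell, beside 24.8% of all genes called. At 3 h 2 rose and 4 fell, a larger share of the 13 than the 32.7% of all genes called, unlike the members. In RBH 2 rose and 0 fell against water, beside 27.0%, and 1 rose against RB 2 h, beside 16.8%. AT5G20000 rose to 124, 95.4 and 133 CPM at 2 h and 168, 159 and 118 at 3 h from 70.4, 81.4 and 66.7 in water. Its log2 fold change at 3 h was 1.03 ± 0.20 (adjusted p = 0.000313). AT5G20000 is RPT6b, the partner of RPT6A, which had the opposite sign at 3 h (-0.48 ± 0.19) and was not called. AT1G75990, listed as RPN3b, fell from 107, 96.4 and 91.2 CPM in water to 39.4, 57.9 and 51.6 at 3 h (adjusted p = 0.00353). The log2 fold change of AT1G75990 at 2 h was -0.86 ± 0.25. PAF2, the partner of PAF1, fell at 1 h, 2 h and 3 h, by 0.84, 0.64 and 0.65 on the log2 scale (adjusted p = 0.0272, 0.039 and 0.0268). Its libraries ran from 139.7 to 161 CPM in water and from 59.4 to 129 over the RB groups, where RB 1 h b and RB 2 h a were again the highest. PAD2, the partner of PAD1, fell at 3 h by 0.57 (adjusted p = 0.0164).

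Regulators, assembly factors and deubiquitinases formed a list of 13 loci with 9 tested, of which 2 rose and 0 fell in each of RB 2 h, RB 3 h and RBH. That is no larger a share than the 24.8%, 32.7% and 27.0% of all genes called there. NAC053 was thinly counted, with 2, 2 and 4 counts in the water libraries, so its size of change is uncertain. It rose from 2.39, 1.49 and 2.28 CPM in water to 7.05, 11.7 and 16.6 at 2 h, 11.7, 16.1 and 10.7 at 3 h and 13.0, 7.75 and 7.05 in RBH, with no overlap. At 1 h of RB it had 4.79, 5.91 and 5.49 CPM, also above water (log2 fold change 1.35, adjusted p = 0.151). Its log2 fold change was 2.57 ± 0.48 at 2 h (adjusted p = 0.000295) and 2.08 in RBH (adjusted p = 0.00241). NAC078, named NAC2 in the reference, rose from 91.9, 122 and 104 CPM in water to 166, 144 and 163 at 2 h and 208, 176 and 167 at 3 h (log2 fold change 0.57, adjusted p = 0.02, and 0.79, adjusted p = 0.00109). Of the members, RPN1A was called lower at 2 h, and RPN1A and PBE1 at 3 h. The other gene that rose in RBH, the deubiquitinase UBP6, was at 1.45 (adjusted p = 0.0432).

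Ubiquitin, its activation and delivery gave 17 tested genes, of which 4 rose and 2 fell at 2 h of RB, 5 rose and 1 fell at 3 h, and 2 rose and 1 fell in RBH. These counts stand beside 24.8%, 32.7% and 27.0% of all genes called. UBQ4, a polyubiquitin gene, rose from 57.3, 84.4 and 88.3 CPM in water to 195, 135 and 167 at 2 h (log2 fold change 1.09, adjusted p = 0.000187). UBQ10 rose by 0.72 (adjusted p = 0.00715) and AtCDC48B, of the segregase family that hands substrates to the proteasome, by 0.87 (adjusted p = 0.00696), both at 2 h. UBA 2, a ubiquitin-activating enzyme, fell by 0.81 at 2 h (adjusted p = 0.00307). Of the COP9 signalosome, a complex built like the lid, 5 genes were tested. In RBH 1 of 5 was called against water, beside 27.0% of all genes, and 1 of 5 against RB 2 h, beside 16.8%. This gene, CSN5A, the catalytic subunit, rose in RBH by 0.57 against water (adjusted p = 0.0116) and 0.95 against RB 2 h (adjusted p = 0.000311). CSN5A had 241, 185 and 196 CPM in RBH and 101 to 112 at 2 h of RB.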

How the data were processed

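Root RNA was measured by MARS-seq in 15 libraries. Per the submitters' processing notes the tools were bcl2fastq, cutadapt, STAR 2.4.2a, HTSeq and DESeq2, with no settings, genome build or handling of molecular identifiers stated there. The authors deposited a table of raw counts per gene. Beside the counts, the authors' table holds their own log2 fold changes and adjusted p-values. A further 30 per-library columns of normalized values were not used.

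Counts were fitted with edgeR 4.0.16 in R 4.3.3 by the robust quasi-likelihood F test, two-sided, with TMM scaling and filterByExpr, which kept 9891 genes. All 15 libraries entered 1 fit, with 10 residual degrees of freedom, and calls needed an adjusted p (Benjamini-Hochberg, all tested genes) under 0.05. CPM use TMM-scaled totals. Standard errors were derived from the F statistic and the size of the log2 fold change. DESeq2 1.42.0, RLE scaling, no filter, only 2 groups, a replicate block, leaving out each library, and leaving out RB 1 h b and RB 2 h a were alternatives. The fit was tested on simulated data.

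The members, the lists and the alternatives were chosen with earlier results of these data known. Named genes are, per subcomplex, the 3 members with the smallest p and the 1 with the largest in RB 2 h vs water, members called in RBH vs RB 2 h, and pairs of paralogs. From each list they are up to 4 genes with the smallest p. Other genes were named after their values were seen. Counting error is the only error that depth sets here, with library totals of 897728 to 6230975. It is relatively largest for the members with a mean under 50 counts, whose other spread was not explained. Replicates are separate pools of seedlings per the labels, and no pair of libraries agreed within counting noise (chi-square per degree of freedom 3.00 to 11.1).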

Additional observations from a re-analysis of the deposited data

Results flagged for a closer look

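The effect of RBH on AT5G23540 differed from that of RB at the same time: RBH stood 0.60 above RB 2 h on the log2 scale (edgeR quasi-likelihood test, adjusted p = 0.0471), with all 3 RBH libraries above all 3 RB 2 h libraries. The adjusted p ran from 0.0208 to 0.25 when each of these 6 libraries was left out in turn, and in the authors' deposited table it is 0.0501. RBH holds the agent labelled MRB, which the labels do not equate with RB.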

How the results depend on the processing

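Without RB 1 h b and RB 2 h a the number of members called was 3 in RB 1 h vs water (0 with all), 5 in RB 2 h vs water (1), 6 in RB 3 h vs water (2), 5 in RBH vs RB 2 h (1) and 2 in RB 3 h vs RB 1 h (0). With only the 2 groups compared it was 7 in RB 3 h vs water and 0 in RBH vs RB 2 h, where it was also 0 with no filter and 0 with the replicate block. DESeq2 called 1 in RB 3 h vs RB 1 h. Leaving out each library of the groups compared in turn gave 0 to 1 in RB 1 h vs water, 0 to 4 in RB 2 h vs water, 2 to 3 in RB 3 h vs water, 0 to 1 in RBH vs water and 0 to 3 in RBH vs RB 2 h, and 0 in each of the steps between RB times. Where a group was left with 2 libraries, the fit pools the spread over all groups. The cause of these shifts was not tested, beyond the smaller number of libraries.

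The replicate letters did not pair the samples: correlations of the deviations of same-lettered libraries ran from -0.229 to 0.271, with 4 of 24 over 0.1. With the replicate block AT5G23540 in RBH vs RB 2 h was at 0.61 (adjusted p = 0.0667). Over the tested members, the core median minus the regulatory median was -0.26 in RB 1 h vs water and from -0.40 to -0.04 without 1 library, -0.20 in RB 3 h vs water and 0.08 without RB 3 h replicate a, and 0.22 in RBH vs RB 2 h and -0.36 without RBH replicate a. The results recomputed did not cover every member in every comparison, and among them no single member's sign was reversed by any alternative run. Small changes of thinly counted members can differ in sign between tools. The authors' deposited table has PBB1 at 0.08 for water over RB 2 h, where edgeR has 0.01 for RB 2 h over water. PBF1 and RPT3 in RBH against water also had opposite signs there. The 15 tested members with a mean under 50 counts have wide intervals. Their counts are thin, and many of them also did not follow the library totals. PAA1, for one, had 35 counts in RBH a and 10 in the deeper RBH c. What widens these intervals was not tested.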
